A study of Mus musculus with 12 samples.

Results

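The genes described here are 39 of the 34193 rows of the deposited table, chosen by gene name: the tektins Tekt1 to Tekt5, every gene named as an axonemal dynein heavy chain (Dnahc), the dynein chains Dnaic1, Dnaic2 and Dnali1, the radial spoke genes (Rsph), the ruler proteins Ccdc39 and Ccdc40, the central pair genes Spag6, Spag16, Spag17, Spef1, Spef2 and Hydin, the outer-arm calcium sensor Efcab1 and the transcription factor Foxj1. The rule matches names and uses no measured value, but it was chosen with earlier results of these data known. The rule asked whether Tekt2 was higher in cKO cortex without the rest of the genes of motile cilia. RNA was measured in cerebral cortex of mice aged 8 weeks. The cKO group had 6 libraries from Nsd1 flx/flx; Nestin-cre +/- mice and the control group had 6 libraries from Nsd1 flx/flx; Nestin-cre -/- mice, so both groups carried the floxed Nsd1 allele and the Cre transgene was present in cKO mice alone. NSD1 is a methyltransferase of histone H3 lysine 36, and Nestin-Cre acts in neural progenitors, so that neurons, astrocytes, oligodendrocytes and ependymal cells descend from cells with Cre, while microglia do not. The libraries are numbered as biological replicates but no animals are named, so p-values measure how far these samples spread, which may be technical.

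A motile cilium or sperm tail beats because dynein motors, attached to microtubule doublets, slide the doublets past one another. Outer and inner dynein arms supply the force, radial spokes and the central pair apparatus regulate it, and tektins are filament proteins that run along the inside of the doublets. In the brain, motile cilia are borne by the ependymal cells that line the ventricles and, in modified form, by choroid plexus, whereas neurons and astrocytes usually carry a primary cilium without dynein arms; the transcription factor FOXJ1, together with RFX factors, switches on the genes of motile cilia.

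Each cKO library held 14.6 to 27.0 M reads and each control library 10.5 to 21.1 M (exact two-sided permutation test of the means, p = 0.160). Values are the authors' normalised reads, and differences are cKO minus control on log2(value + 1), which understates the change of weakly expressed genes. Nsd1 had 3251 ± 299 normalised reads in cKO libraries and 4235 ± 850 in control libraries (SD, n = 6 each), a log2 difference of -0.36 with an adjusted p of 0.383 (limma with Benjamini-Hochberg adjustment). The value covers the whole gene, and the position of the floxed exons was not used. Libraries 1 to 3 of each group held Y-linked reads and libraries 4 to 6 did not, and effects within these sets are given where they bear on a member. Control libraries 4 and 5 stood apart by mitochondrial ribosomal RNA, 14.2% and 11.5% of reads, against 1.46% to 6.00% in the other 10 libraries. In tissue RNA of this kind, fewer cells of a type and less RNA per cell cannot be told apart.

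Of the 39 members, 29 averaged 10 or more normalised reads across the 12 libraries and were tested among 14397 genes. Tekt2 and Efcab1 rose in cKO cortex, and no member fell, at a limma adjusted p under 0.05. That is 2 of 29 members, or 6.9%, where 0.834% of all tested genes were called in either direction, 0.764% as higher and 0.0695% as lower in cKO. The rule names Tekt2 in its question, and without it the share was 1 of 28 (3.57%). The members were chosen with earlier results of these data known, so these shares describe the list and are no test of it. In Tekt2 and Efcab1 alone every cKO library lay above every control library, a separation found in 0.813% of all tested genes. No member had every cKO library below every control library, against 0.194% of all tested genes. At an unadjusted p under 0.05 there were 5 members of 29 (17.2%), namely Tekt2, Efcab1, Dnahc1, Spef2 and Spef1, against 9.73% of all tested genes. The Spef1 row, counted here, closely followed that of Cenpb, a gene with overlapping exons, as given below. The median log2 difference of the 28 tested members other than Tekt2 was 0.02, with 15 above and 13 below 0, and the median over all tested genes was -0.00069. In the authors' deposited table, 2 of the 38 members with an adjusted p were under 0.05, again Tekt2 and Efcab1. Of the 19650 genes with an adjusted p in that table, 0.906% were.

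**Figure D1:**
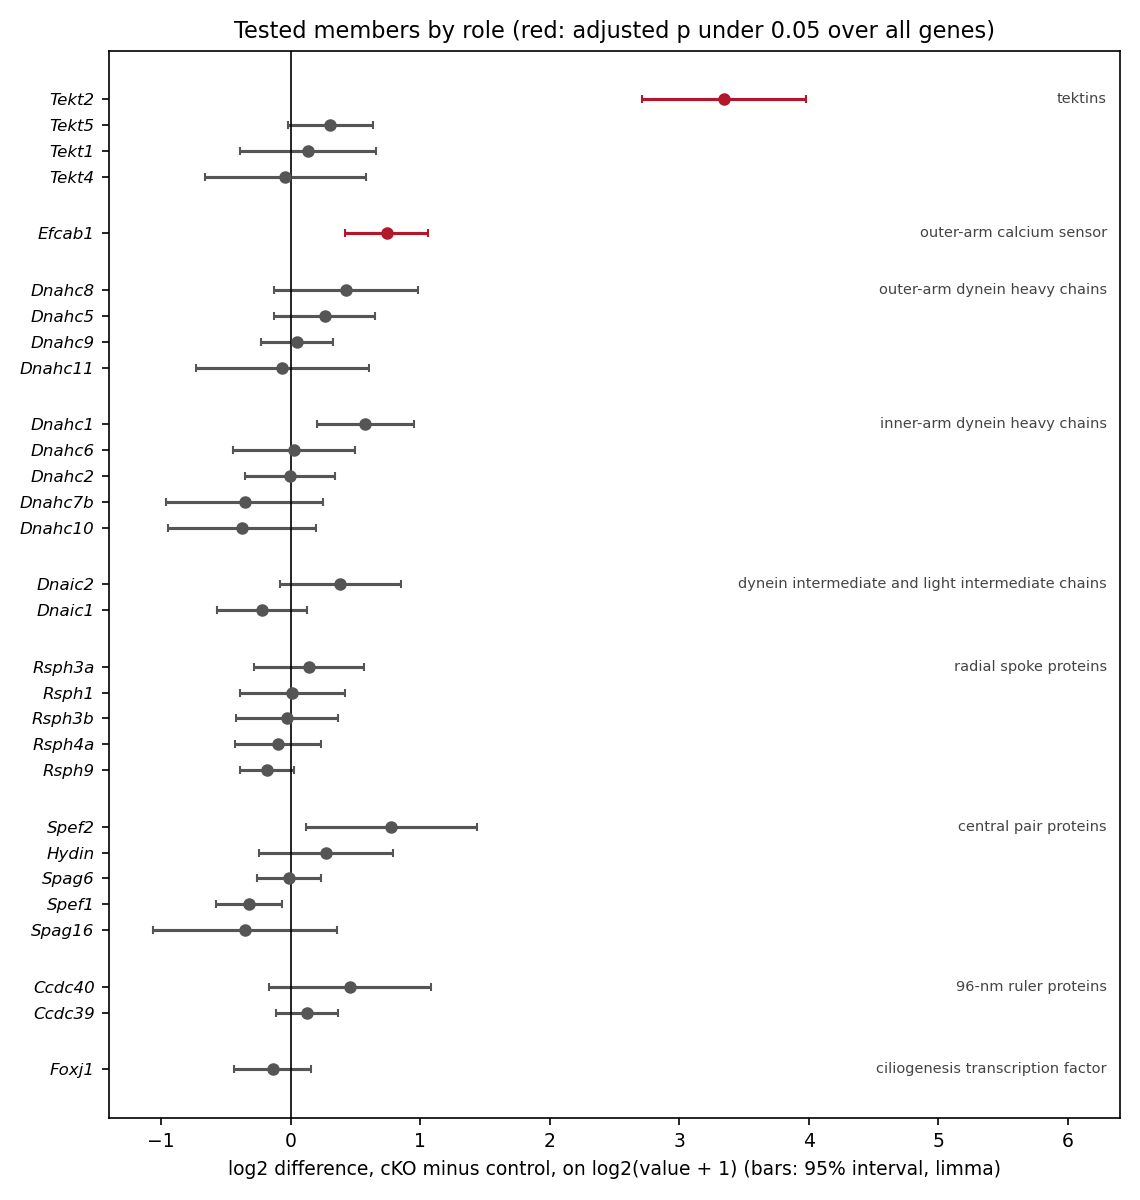
Log2 difference (x axis, cKO minus control on log2(value + 1)) of the 29 tested members, grouped by role down the page; points are limma estimates, bars their 95% intervals, and red marks an adjusted p under 0.05 over all 14397 genes. Tekt2 stands alone at 3.35, Efcab1 follows among the called genes at 0.74, and the other 27 lie between -0.37 and 0.78.

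Tekt2 encodes a tektin of sperm tails and motile cilia that is needed for normal sperm movement in mice. Its lowest, median and highest values were 30.3, 42.9 and 53.4 normalised reads in cKO libraries, against 0.860, 4.08 and 5.59 in control libraries. All 6 cKO libraries were high and all 6 control libraries low, with a wide gap between the groups. The means were 42.1 ± 9.51 in cKO libraries and 3.54 ± 1.89 in control libraries (SD, n = 6 each), 11.9 times as high in cKO. The log2 difference was 3.35 with a standard error of 0.30 and a 95% interval of 2.72 to 3.98 (limma adjusted p = 1.35e-05), and by p-value it ranked 6 among all tested genes. Before scaling these values rest on 287 reads summed over cKO libraries and 18 reads summed over control libraries, so the control level is near the limit of detection: 3 reads are worth 1.98 to 5.64 normalised reads, depending on the library. The effect was 3.81 in the libraries that held Y-linked reads and 2.89 in the others, and the test of their difference gave an unadjusted p of 0.125 (limma). Without control libraries 4 and 5 the log2 difference was 3.48 (limma adjusted p = 0.00031). In the authors' deposited table the log2 fold change was 3.66 with an adjusted p of 9.3e-16. Per kb of exon, Tekt2 averaged 22.1 normalised reads in cKO libraries and 1.87 in control libraries, which placed it between Efcab1 and Spag6 in the cKO group.

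The other 4 tektins are likewise proteins of sperm tails or cilia, and none was called. Tekt5, a tektin known from mouse sperm, had the highest level of them per kb of exon. Its lowest, median and highest values were 90.2, 147 and 179 normalised reads in cKO libraries and 84.6, 113 and 137 in control libraries. The groups overlapped, with 4 of 6 cKO libraries above the highest control library, and the log2 difference was 0.31 with a 95% interval of -0.02 to 0.63 (limma adjusted p = 0.522). Tekt1, found in cilia and flagella, averaged 15.3 ± 4.03 normalised reads in cKO libraries and 13.9 ± 3.79 in control libraries (SD, n = 6 each; log2 difference 0.14, interval -0.39 to 0.66); leaving out control library 5 gave 0.0074 and leaving out cKO library 4 gave 0.26. Tekt4, a sperm tail tektin, averaged 13.1 ± 6.00 in cKO libraries and 13.4 ± 6.94 in control libraries (log2 difference -0.04, interval -0.66 to 0.58). The sign of the Tekt4 value changed under several alternatives, so no direction is given for it. Tekt3, another sperm tektin, had 4 reads in all in cKO libraries, from 2 of the 6, and 0 in control libraries; it was below the filter, and no fold is given because both groups were at or under 3 reads in every library.

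**Figure D2:**
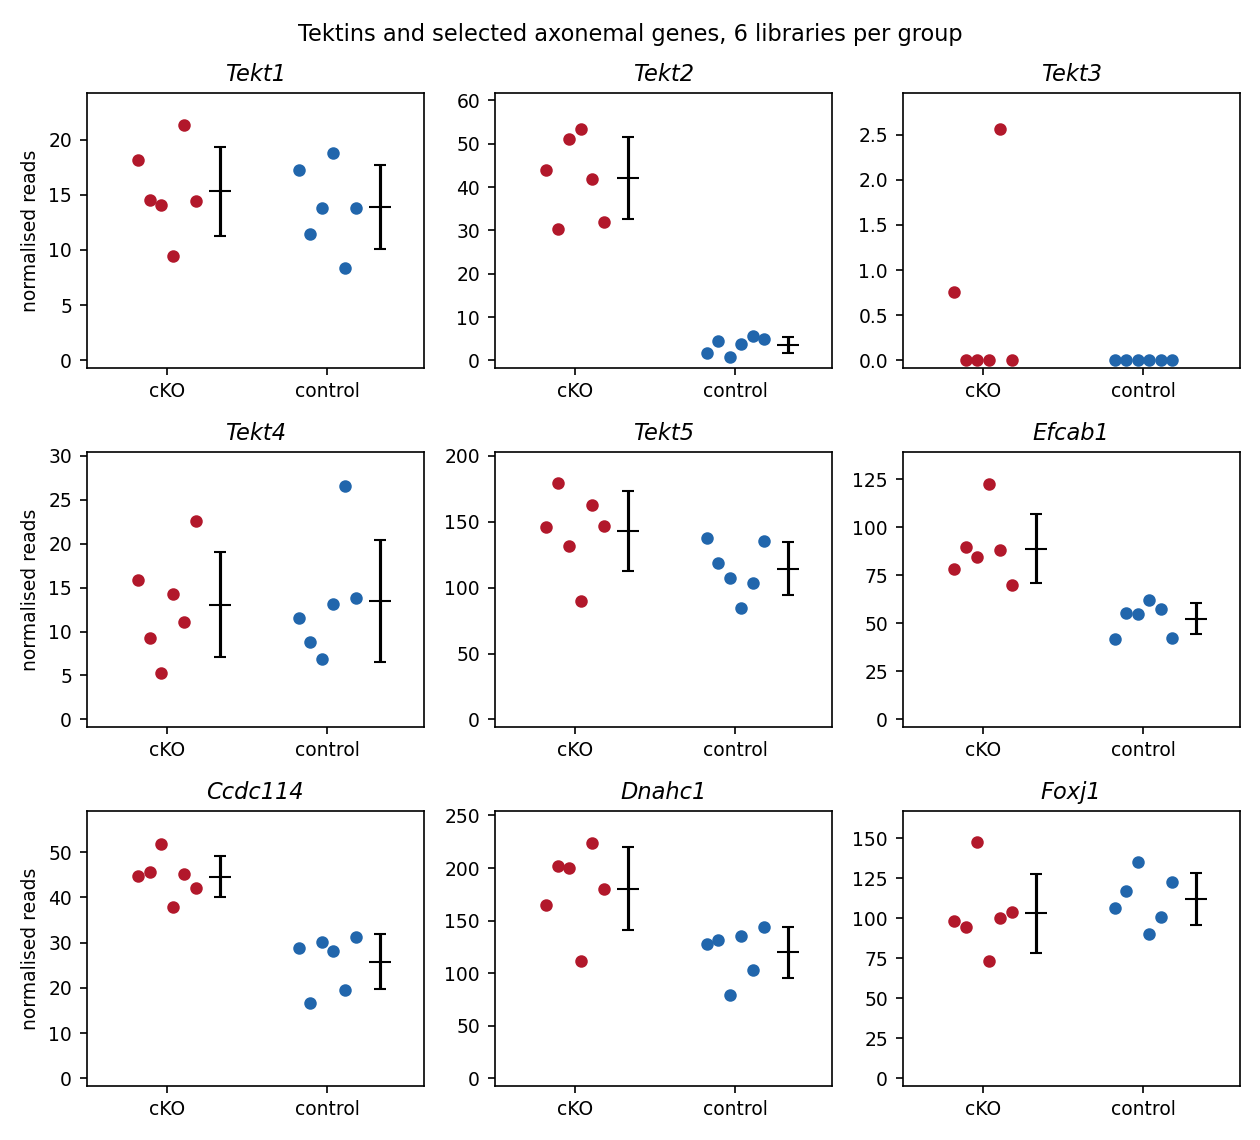
Normalised reads (y axis) in each library for the 5 tektins, Efcab1, Ccdc114, Dnahc1 and Foxj1; points are libraries, 6 per group with cKO left of control, and the black bars are the mean and SD (not drawn for Tekt3). Tekt2 has cKO points from 30.3 to 53.4 and control points from 0.860 to 5.59, the groups are also apart for Efcab1 and Ccdc114, and they overlap for the other tested tektins, Dnahc1 and Foxj1.

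The start regions of 4 tektin genes are shown because they place the called tektin beside members that were not called. Each is 300 bases from RefSeq (GRCm38.p6), from 250 bases before to 50 bases after the first listed start, written 5′ to 3′ on the gene's strand. Capitals mark GTTGC or, on the other strand, GCAAC, a half-site found in the X-box that RFX factors are known to bind; this motif was chosen with the Tekt2 sequence known.
Tekt2, chr4:126325639-126325938, minus strand: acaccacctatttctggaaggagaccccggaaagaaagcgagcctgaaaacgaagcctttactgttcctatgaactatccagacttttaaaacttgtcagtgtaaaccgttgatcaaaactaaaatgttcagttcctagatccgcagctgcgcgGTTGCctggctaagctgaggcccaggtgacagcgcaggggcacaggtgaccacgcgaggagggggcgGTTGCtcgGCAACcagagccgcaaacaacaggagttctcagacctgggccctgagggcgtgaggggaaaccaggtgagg
Tekt4, chr17:25471340-25471639, plus strand: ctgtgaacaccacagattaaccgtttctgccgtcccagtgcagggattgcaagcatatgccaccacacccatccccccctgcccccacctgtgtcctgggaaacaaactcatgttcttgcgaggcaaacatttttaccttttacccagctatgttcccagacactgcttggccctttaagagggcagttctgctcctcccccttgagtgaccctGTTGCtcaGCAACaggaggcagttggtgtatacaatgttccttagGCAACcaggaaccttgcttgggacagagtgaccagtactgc
Tekt1, chr11:72361833-72362132, minus strand: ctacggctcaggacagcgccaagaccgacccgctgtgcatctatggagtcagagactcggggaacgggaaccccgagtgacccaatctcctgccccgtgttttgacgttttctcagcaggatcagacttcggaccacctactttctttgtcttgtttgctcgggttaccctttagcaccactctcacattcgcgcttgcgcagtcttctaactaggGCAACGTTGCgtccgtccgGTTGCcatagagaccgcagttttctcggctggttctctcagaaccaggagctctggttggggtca
Tekt5, chr16:10395406-10395705, minus strand: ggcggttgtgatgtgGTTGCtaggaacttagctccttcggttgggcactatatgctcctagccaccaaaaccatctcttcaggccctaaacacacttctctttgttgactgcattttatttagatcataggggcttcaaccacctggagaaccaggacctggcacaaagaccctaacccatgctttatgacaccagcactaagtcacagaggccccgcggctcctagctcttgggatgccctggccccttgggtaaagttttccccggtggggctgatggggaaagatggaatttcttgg

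Tekt2 and Tekt4 each held a facing pair of half-sites 3 bases apart (GTTGCNNNGCAAC) shortly before the start, and a further single half-site. Tekt1 had 3 half-sites close to the start, none of them a pair in that orientation, and Tekt5 had 1, far upstream. Facing pairs were counted at spacings of 2, 3 and 4 bases (GTTGCNNGCAAC, GTTGCNNNGCAAC and GTTGCNNNNGCAAC), each of which contains 2 half-sites and reads the same on both strands. Of the 39 members, 33 matched an entry with a start region. A half-site was present in 26 of these 33 (78.8%), against 35.4% of 27025 start regions of the same length, and a facing pair in 8 (24.2%), against 0.414% (112 regions). The 8 were Tekt2, Tekt4, Dnahc6, Dnahc7a, Dnahc7b, Dnaic2, Rsph3b and Hydin. Of them, Tekt2 was called higher in cKO, 6 were tested and not called, and Dnahc7a was below the filter. Because the motif was chosen with the Tekt2 sequence known, the hits of Tekt2 were fixed in advance. Dnahc7a and Dnahc7b are near-identical copies, so their hits are not independent. The shares of half-sites and pairs therefore describe the members and are no test. The forkhead motif TGTTTAC, searched on both strands, occurred in 2 of the 33, Tekt3 and Dnahc17, or 6.06%, against 3.55% of all regions. The window of Tekt2 held 14 CG dinucleotides, against 20 for Tekt1, 12 for Tekt3, 3 for Tekt4 and 5 for Tekt5; the median over all 27025 was 7, with quartiles of 3 and 21. These are letter matches in a fixed window and not measured binding.

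The genes that flank Tekt2 on the chromosome were not called. Adprhl2, an ADP-ribosyl hydrolase gene on one side, averaged 258 normalised reads in cKO libraries and 244 in control libraries (log2 difference 0.09, limma adjusted p = 0.707). Eif2c3, the Argonaute gene now called Ago3 on the other side, averaged 768 in cKO libraries and 738 in control libraries (log2 difference 0.08, limma adjusted p = 0.829), and its sign turned without control library 3 and with a length trend removed. An annotated transcript that overlaps Tekt2 on the opposite strand, Gm12945, averaged 0.729 in cKO libraries and 0.346 in control libraries. The strand setting of the counting was not known, so reads of this overlap could not be assigned.

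Efcab1, now known as calaxin, is a calcium-binding protein of the outer dynein arm that adjusts ciliary beating. Its lowest, median and highest values were 69.9, 86.1 and 122 normalised reads in cKO libraries, against 42.0, 55.3 and 62.0 in control libraries. All cKO libraries were above all control libraries, with a narrower gap than for Tekt2. The means were 88.7 ± 17.9 in cKO libraries and 52.4 ± 8.23 in control libraries (SD, n = 6 each), 1.69 times as high in cKO, and the log2 difference was 0.74 with a standard error of 0.15 (95% interval 0.42 to 1.06, limma adjusted p = 0.0219). The effect was 0.72 with and 0.76 without Y-linked reads. Without control libraries 4 and 5 it was 0.84 (limma adjusted p = 0.0497). The call was lost, with adjusted p up to 0.0762, when cKO library 2, 3 or 5 or control library 1 or 6 was left out, although the difference stayed between 0.65 and 0.82 over the 12 omissions. In the authors' deposited table the adjusted p was 0.00173.

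The outer dynein arm itself is built from heavy chains, the motors, and intermediate chains that anchor them. Of the 5 outer-arm heavy chains, 4 were tested and none was called, with a median log2 difference of 0.16. Dnahc5, which is mutated in human primary ciliary dyskinesia, had a lowest, median and highest value of 128, 163 and 218 normalised reads in cKO libraries, against 100.2, 140.1 and 188 in control libraries. The 2 groups overlapped over most of their ranges, and the log2 difference was 0.26 (interval -0.13 to 0.65, limma adjusted p = 0.597). Dnahc9, another outer-arm heavy chain, averaged 116 in cKO libraries and 113 in control libraries (log2 difference 0.05), with 0.32 in the libraries that held Y-linked reads and -0.22 in the others. Dnahc11, which partners Dnahc5 in the proximal cilium, gave -0.06, with means of 10.9 in cKO libraries and 12.4 in control libraries. Dnahc8, a sperm heavy chain, gave 0.42, with means of 14.5 in cKO libraries and 10.5 in control libraries. The sperm heavy chain Dnahc17 was below the filter at 6.76 in cKO libraries and 6.81 in control libraries. The intermediate chains were also not called: Dnaic1 averaged 35.6 in cKO libraries and 41.7 in control libraries (log2 difference -0.22, limma adjusted p = 0.615), and Dnaic2 averaged 31.0 in cKO libraries and 23.1 in control libraries (0.38, limma adjusted p = 0.544). Dnaic1 gave 0.10 in the libraries that held Y-linked reads and -0.54 in the others (unadjusted p of the difference 0.0489, limma). The inner-arm light intermediate chain Dnali1 was below the filter, with medians of 7.41 in cKO libraries and 6.50 in control libraries.

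Inner-arm heavy chains shape the bend of the cilium. Of 10 such rows, 5 were tested and none was called, with a median log2 difference of -0.01. Dnahc1, whose human counterpart is mutated in men with malformed sperm tails, came closest. Its lowest, median and highest values were 112, 190.3 and 223 normalised reads in cKO libraries, against 79.1, 129 and 144 in control libraries. The groups overlapped through 1 library, cKO 4, which lay among the control values while the other 5 cKO libraries were above all of them. The means were 180.4 ± 39.3 in cKO libraries and 120.1 ± 24.2 in control libraries (SD, n = 6 each), and the log2 difference was 0.58 (95% interval 0.21 to 0.95, unadjusted p = 0.00457, limma adjusted p = 0.276). With cKO library 4 left out it was 0.72 and called (limma adjusted p = 0.0270). Over the 12 omissions of a library the difference ranged from 0.45 to 0.72, with limma adjusted p up to 0.602. In the authors' deposited table its adjusted p was 0.0802.

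The remaining tested inner-arm chains had log2 differences of 0.03 for Dnahc6, -0.01 for Dnahc2, -0.36 for Dnahc7b and -0.37 for Dnahc10, all with overlapping groups. Dnahc10 gave 0.19 in the libraries that held Y-linked reads and -0.93 in the others (unadjusted p of the difference 0.0314, limma). Dnahc7c was at 0 in every library and Dnahc7a had 4 reads in cKO libraries and 1 read in control libraries. These rows are near-identical copies of Dnahc7b, so how reads were divided among the 3 is uncertain. Dnahc3 averaged 2.28 ± 1.61 in cKO libraries and 5.85 ± 2.72 in control libraries (SD, n = 6 each) and was below the filter; in a fit without a filter its log2 difference was -1.14 (unadjusted p = 0.00683, limma adjusted p = 0.345). Dnahc12 and Dnahc14 were below the filter, the first at 5.84 in cKO libraries and 5.80 in control libraries, the second at 3.20 in cKO libraries and 1.70 in control libraries.

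Radial spokes carry signals from the central pair to the dynein arms. Of the 6 radial spoke genes, 5 were tested and none was called, with log2 differences from -0.18 to 0.14. Rsph9, a spoke head protein and the one with the highest level per kb, had lowest, median and highest values of 109, 125 and 144 normalised reads in cKO libraries, against 132, 140.2 and 156 in control libraries. The cKO values lay lower on the whole but overlapped the control values (log2 difference -0.18, interval -0.39 to 0.02, limma adjusted p = 0.527). The spoke head genes Rsph1 and Rsph4a gave 0.01 and -0.10, and the stalk genes Rsph3a and Rsph3b gave 0.14 and -0.03; the last pair are close copies whose reads could have been shared. Rsph6a, a spoke head gene of sperm, was below the filter at 3.80 in cKO libraries and 5.26 in control libraries.

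Ccdc39 and Ccdc40 form a ruler along the doublet that sets where inner arms and spokes attach. Ccdc39 averaged 141 ± 19.7 normalised reads in cKO libraries and 129 ± 15.6 in control libraries (SD, n = 6 each; log2 difference 0.13, limma adjusted p = 0.659). Ccdc40 averaged 23.1 ± 5.81 in cKO libraries and 17.9 ± 8.33 in control libraries (SD, n = 6 each; log2 difference 0.46, interval -0.17 to 1.09). Neither was called.

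Of the 6 central pair genes, 5 were tested and none was called, with a median log2 difference of -0.01. Spag6, a central pair protein needed for ciliary beating in mice, averaged 80.6 ± 9.01 normalised reads in cKO libraries and 81.4 ± 10.4 in control libraries (SD, n = 6 each; log2 difference -0.01, interval -0.26 to 0.24). Hydin, which builds a projection of the central pair and is mutated in mice with hydrocephalus, averaged 23.2 ± 3.10 in cKO libraries and 20.1 ± 7.72 in control libraries (0.28). Spag16, another central pair protein, averaged 10.5 ± 2.96 in cKO libraries and 16.0 ± 10.03 in control libraries (-0.35). Spag17 was below the filter at 5.43 in cKO libraries and 4.37 in control libraries. Spef2, a projection protein required for sperm tails in mice, had lowest, median and highest values of 8.30, 12.6 and 24.7 in cKO libraries, against 3.76, 8.72 and 12.04 in control libraries. Its groups overlapped, and the log2 difference was 0.78 (interval 0.12 to 1.44, unadjusted p = 0.0242, limma adjusted p = 0.476).

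Spef1, a microtubule-bundling protein of the central pair, had by far the highest level of any member per kb of exon, 1125 normalised reads in cKO libraries and 1410 in control libraries. Unscaled for length, its lowest, median and highest values were 2376, 3103 and 3586 normalised reads in cKO libraries, against 3044, 3863 and 4626 in control libraries. The groups overlapped (log2 difference -0.32, interval -0.57 to -0.07, unadjusted p = 0.0164, limma adjusted p = 0.449). The effect was -0.05 in the libraries that held Y-linked reads and -0.59 in the others (unadjusted p of the difference 0.0183, limma). Control libraries 4 and 5 held the highest values, and without them the log2 difference was -0.17 (limma adjusted p = 0.993). The annotated exons of Spef1 overlap those of Cenpb, a centromere protein gene on the same strand, and the row for Spef1 followed that of Cenpb closely. Spef1 has 2747 exon bases, and its overlap with 3 genes, Cenpb among them, came to 368 bases in all. Whether this overlap accounts for the close match was not tested. Cenpb averaged 2983 ± 417 in cKO libraries and 3753 ± 654 in control libraries (SD, n = 6 each; limma adjusted p = 0.453), and the ratio of Spef1 to Cenpb was between 1.02 and 1.04 in all 12 libraries. The Spef1 value less the Cenpb value was 107 ± 9.43 in cKO libraries and 121 ± 10.2 in control libraries (SD, n = 6 each), with ranges of 92.5 to 120.4 in cKO libraries and 103 to 131 in control libraries. That difference of -13.5 had an exact two-sided permutation p of 0.0390, for a quantity chosen after the values were seen. The level of Spef1 is therefore uncertain.

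**Figure D3:**
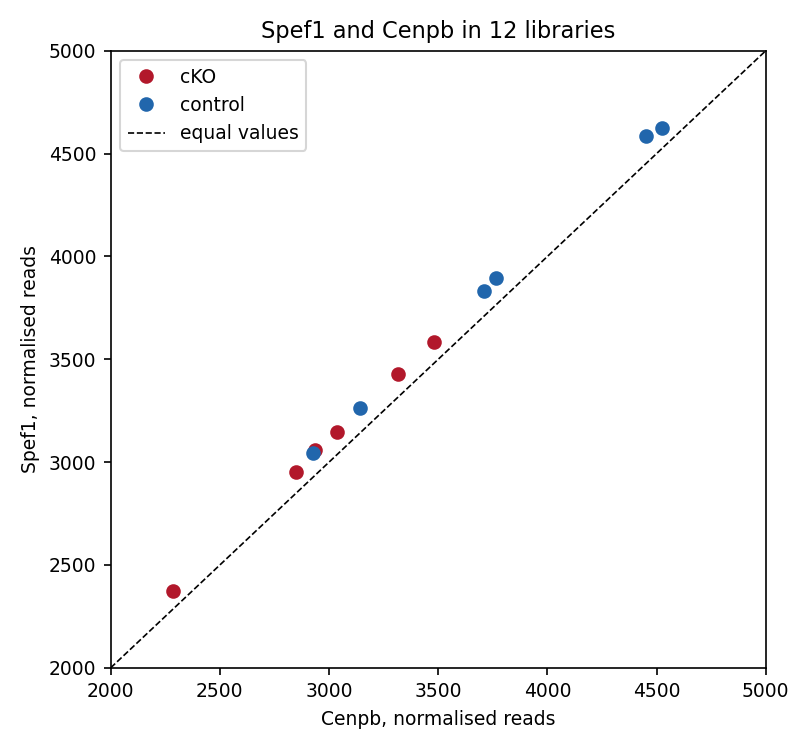
Normalised reads of Spef1 (y axis) against those of Cenpb (x axis) in the 6 cKO and 6 control libraries; each point is a library and the dashed line marks equal values. All 12 points lie just above the line, with ratios of 1.02 to 1.04.

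Foxj1, the transcription factor that starts the motile cilia programme, was not called. Its lowest, median and highest values were 73.5, 99.1 and 148 normalised reads in cKO libraries, against 90.2, 112 and 135 in control libraries. The cKO range enclosed the control range. The log2 difference was -0.14 (interval -0.43 to 0.16, limma adjusted p = 0.701), -0.23 without cKO library 3 and -0.065 without cKO library 4, with -0.10 among libraries with and -0.18 among libraries without Y-linked reads.

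**Figure D4:**
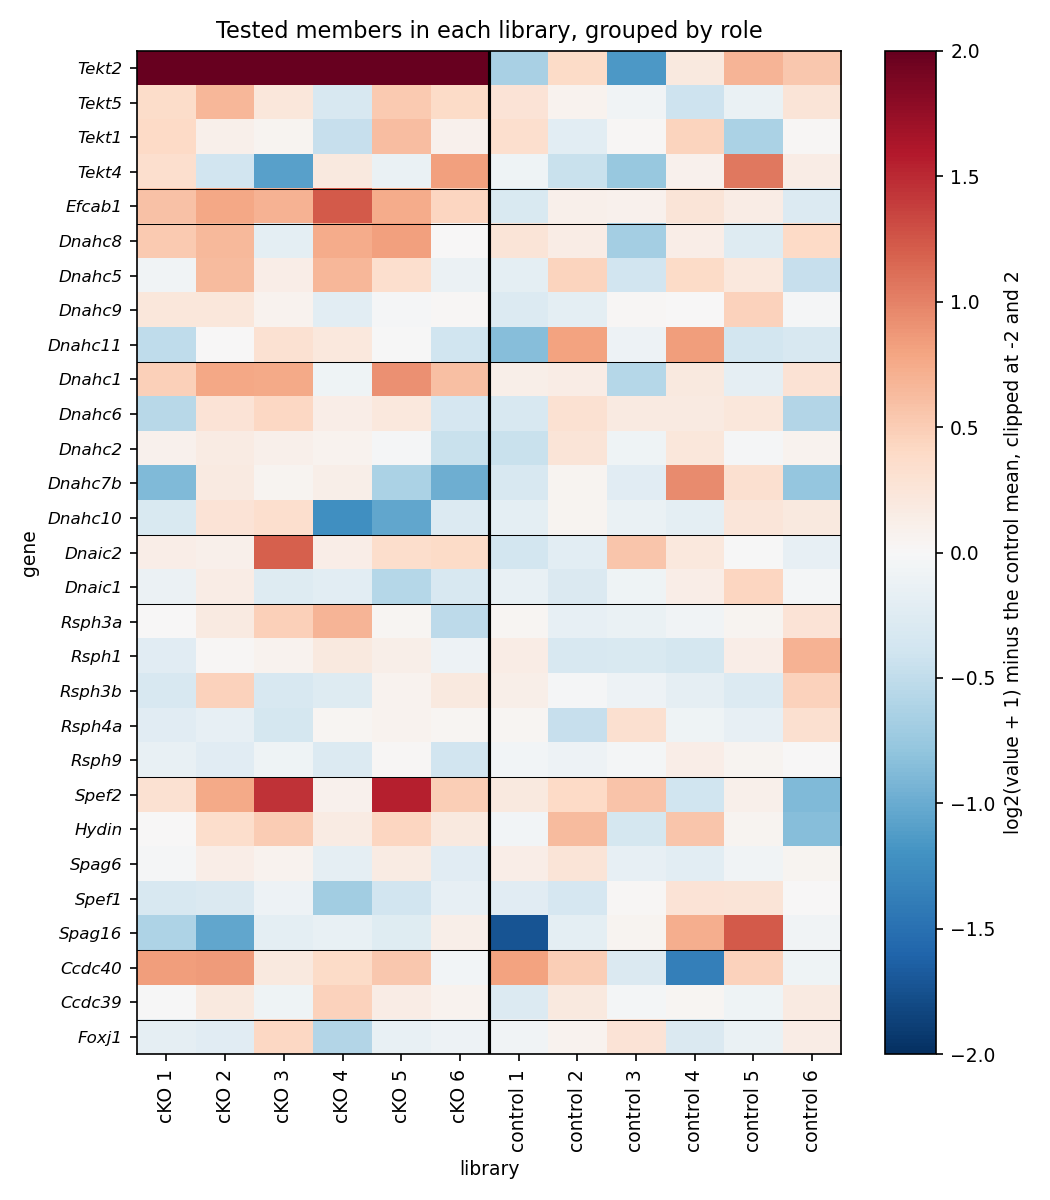
Heat map of the 29 tested members (y axis, grouped by role) in the 12 libraries (x axis, 6 cKO left of 6 control); colour is log2(value + 1) minus the mean of the control libraries, clipped at -2 and 2. Tekt2 is at the high end of the scale in all 6 cKO libraries, Efcab1 is above its control mean in all 6, and no other member has all 6 cKO libraries above all 6 control libraries.

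Among the 27 tested members other than Tekt2 and Efcab1, the 2 groups overlapped in all 27. The 95% limma interval lay inside -1 to 1, that is below a doubling or halving on this scale, in 24 of 27, and inside -0.5 to 0.5 in 10. The highest upper bound, 1.44 for Spef2, was below the lower bound for Tekt2, 2.72. Their median log2 difference was 0.01, with 14 above and 13 below 0. The median of the 28 members other than Tekt2 was 0.13 in the libraries that held Y-linked reads and -0.0037 in the others. No tested member passed the adjusted test of a difference between the 2 sets (smallest limma adjusted p = 0.562 over all genes, with 0% of all genes called). At a limma unadjusted p under 0.05, 4 of 29 (13.8%) did, against 8.77% of all tested genes. Spef1, whose row followed that of Cenpb, was among these 4.

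Levels of the members in control cortex, per kb of exon, spanned from 88.8 normalised reads for Rsph9 down to under 1 for several dynein heavy chains, leaving out Spef1 for its overlap with Cenpb. Tekt5 followed with 79.1 in cKO libraries and 63.4 in control libraries, then Foxj1 with 39.3 in cKO libraries and 42.7 in control libraries, and Spag6 with 23.8 in cKO libraries and 24.0 in control libraries. Tekt2 in control libraries, at 1.87, stood beside Dnahc6 (1.92), whereas in cKO libraries, at 22.1, it stood beside Spag6. Efcab1 had 20.01 in cKO libraries and 11.8 in control libraries on the same scale. Exons of several other members also overlap genes on the opposite strand, among them Spag17 (1336 bases), Ccdc39 (1256), Dnahc14 (907) and Dnahc11 (642). Whether their levels include reads of those genes was not tested.

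**Figure D5:**
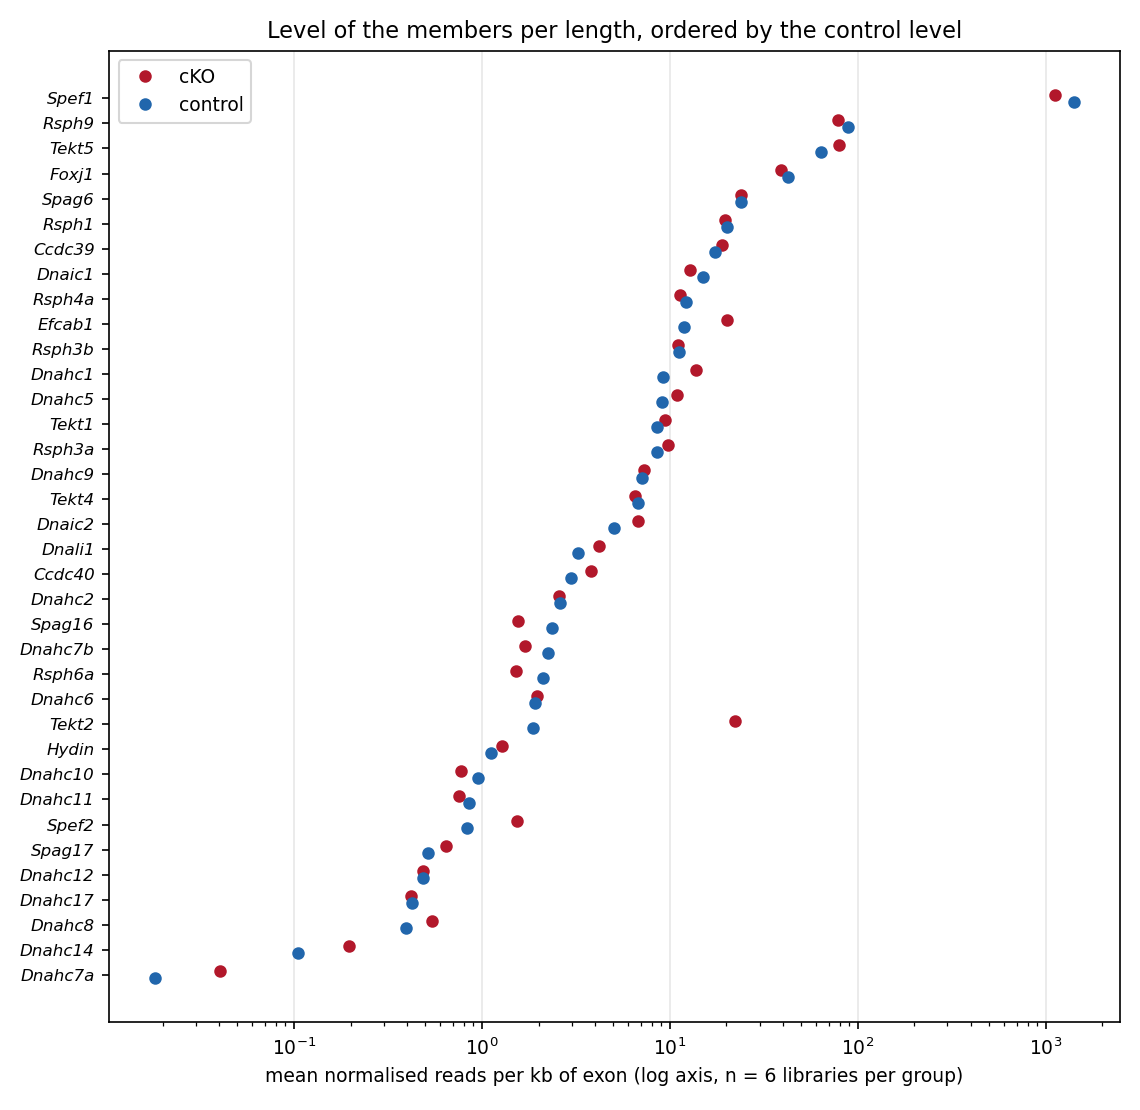
Mean normalised reads per kb of exon (x axis, log scale) for each member with a length and reads in both groups (y axis, ordered by the control level); red points are cKO and blue points control, each a mean of 6 libraries without an error bar. The points of Tekt2 lie at 22.1 for cKO and 1.87 for control, and those of most other members lie close together.

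Other genes of the axoneme and its assembly were taken from lists outside the members. Of 14 genes for dynein arm assembly and docking, 11 were tested, 1 was called higher and none lower. Their median log2 difference was 0.17, with 6 above and 5 below 0. A limma unadjusted p under 0.05 was found for 2 of the 11, Ccdc114 and Armc4, both higher in cKO libraries, against 9.73% of all tested genes. Over all tested genes 0.834% were called in either direction, so few or no calls are usual in short lists such as this and those below. The called gene was Ccdc114, a component of the docking complex that holds outer dynein arms to the doublet. Its lowest, median and highest values were 38.0, 44.9 and 51.9 normalised reads in cKO libraries, against 16.7, 28.5 and 31.3 in control libraries. All cKO libraries were above all control libraries. The log2 difference was 0.80 with a standard error of 0.18 (95% interval 0.42 to 1.18, limma adjusted p = 0.0499). The call sat at the threshold and was lost in 11 of the 12 omissions of a library, with adjusted p up to 0.135; it was also lost without control libraries 4 and 5 (adjusted p = 0.238) and held in edgeR (0.0460) and in the authors' deposited table (0.0182). Armc4, which also acts in docking, averaged 23.7 ± 2.78 in cKO libraries and 16.1 ± 4.58 in control libraries (SD, n = 6 each). Its log2 difference was 0.57 (limma adjusted p = 0.436). In the same list, Ccdc151 gave 0.30 and Ttc25 gave -0.11 (limma adjusted p of 0.516 and 0.888). Dyx1c1, a dynein assembly factor, had the most reads of the list and averaged 1572 ± 297 in cKO libraries and 1386 ± 204 in control libraries (0.17, limma adjusted p = 0.580; 0.056 without cKO library 4, which was the highest).

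Of 27 genes for nexin links and microtubule inner proteins, 20 were tested and none was called by limma. Their median log2 difference was -0.02, with 9 above and 11 below 0. A limma unadjusted p under 0.05 was found for 4 of the 20, against 9.73% of all tested genes. These were Tcte1, Efhc2, Ccdc113 and Mns1, all higher in cKO libraries. Mns1 averaged 22.4 in cKO libraries and 14.2 in control libraries (log2 difference 0.68, limma adjusted p = 0.452). Tcte1 encodes a subunit of the nexin-dynein complex. Its lowest, median and highest values were 29.7, 51.5 and 69.9 normalised reads in cKO libraries, against 11.3, 25.3 and 37.0 in control libraries. The groups overlapped, and the log2 difference was 0.95 (limma adjusted p = 0.0969). DESeq2 on the recovered reads called Tcte1 (adjusted p = 0.00458) and edgeR did not. The other alternatives were not examined for this gene. Efhc2, an inner protein of the doublets, averaged 51.0 ± 11.6 in cKO libraries and 32.7 ± 5.41 in control libraries (SD, n = 6 each; 0.61, limma adjusted p = 0.143). Tcte1, Efhc2 and Mns1 are named for their values. Nme7, the gene of the list with the most reads, averaged 244 in cKO libraries and 270 in control libraries (-0.16).

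None of the 12 tested transcription factors and regulators of multiciliated cells (of 13) was called, with a median log2 difference of -0.13. Rfx3, an RFX factor that acts on ciliary genes, averaged 1459 ± 170 normalised reads in cKO libraries and 1428 ± 240 in control libraries (SD, n = 6 each; 0.04, limma adjusted p = 0.899). Ccno, a regulator of centriole amplification in multiciliated cells, averaged 15.3 ± 4.97 in cKO libraries and 23.2 ± 4.31 in control libraries (SD, n = 6 each; -0.61, limma adjusted p = 0.429) and is named for its value. All 49 genes of intraflagellar transport and the basal body, which primary cilia also use, were tested and none was called; their median was 0.05, with 29 above and 20 below 0. Kifap3, the kinesin adaptor with the most reads of these, gave 0.16 (limma adjusted p = 0.552).

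Markers of the cells that bear motile cilia or flagella were examined in the same fit. Of 13 ependymal markers, 7 were tested, none was called and none was at 0 in all libraries; their median log2 difference was -0.10 (0.22 with and -0.23 without Y-linked reads), and 2 of the 13 also belong to the nexin list. Their summed level was 333 to 390.4 normalised reads in cKO libraries and 267 to 446 in control libraries, where the cKO range lies inside the control range. Much of this sum came from Tm4sf1, a membrane protein gene that vessels also express, which averaged 155 ± 19.6 in cKO libraries and 180.2 ± 45.1 in control libraries (SD, n = 6 each; log2 difference -0.19, limma adjusted p = 0.624). Without it the sum was 171 to 239 in cKO libraries and 121 to 244 in control libraries, and the median log2 difference was 0.03. Fam183b and Ccdc113, both axonemal, had unadjusted p under 0.05 with log2 differences of 0.71 and 0.63 (limma adjusted p of 0.384 and 0.276). Of the 7 tested ependymal markers, 3 were above 0 and 4 below. Ccdc153 was among those below, averaging 14.6 in cKO libraries and 22.0 in control libraries (log2 difference -0.49, limma adjusted p = 0.552). Of 12 choroid plexus markers, 7 were tested and none was called, with a median of 0.20; most of their sum came from Enpp2, which oligodendrocytes also express, and without it the sum was 144 to 211 in cKO libraries and 138 to 178 in control libraries. Prlr and Sostdc1 had log2 differences of 1.01 and 0.93 (limma adjusted p of 0.288 and 0.321). Ttr, the transport protein that defines choroid plexus, averaged 15.9 ± 7.15 in cKO libraries and 28.6 ± 15.8 in control libraries (SD, n = 6 each; log2 difference -0.71, limma adjusted p = 0.560). Of 36 genes of sperm tails and spermatids, 6 were tested and none was called, with a median of -0.35. Among the 6 tested, 1 was above 0 and 5 below, the lowest at -0.73. A limma unadjusted p under 0.05 was found for 3 of the 6, against 9.73% of all tested genes. Of the 36, 11 were at 0 in all 12 libraries, among them the protamines Prm1 and Prm2. The part of these cell types in the Tekt2 and Efcab1 values was not tested beyond these levels.

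Tbr1, a transcription factor of cortical excitatory neurons, was present in both groups, with means of 2505 normalised reads in cKO libraries and 2571 in control libraries. The 5 markers of these neurons, 3 of interneurons, 4 of oligodendrocytes, 4 of microglia and 3 of endothelium gave no call; among them Camk2a gave -0.17, Mbp -0.37, Csf1r 0.07 and Flt1 -0.0037 (limma adjusted p of 0.601, 0.516, 0.752 and 0.993), and the signs of Camk2a and Flt1 turned under alternatives. Of 4 astrocyte markers, 3 were above 0 and 1 below, 2 had a limma unadjusted p under 0.05, and 1 was called higher. The called gene was Aqp4, the water channel of astrocyte endfeet and of ependyma. It averaged 3035 ± 284 normalised reads in cKO libraries and 2109 ± 297 in control libraries (SD, n = 6 each). Its log2 difference was 0.53 (limma adjusted p = 0.00973). Aldoc, the marker with the most reads, was the one below 0, at -0.19 (limma adjusted p = 0.580).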

How the data were processed

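RNA was measured in 12 libraries of cerebral cortex. Per the labels' protocols, 250 ng of total RNA was depleted of ribosomal RNA and prepared with a directional library kit. STAR, Bowtie, Trim Galore, bedtools and mm9 appear in the submitters' processing notes, without versions or roles; the counter and its use of strand are not given in the sources used here. Per the file headers, the deposited values are normalised counts that the authors made with DESeq2, that is a signal in scaled reads. The deposited table also holds the authors' log2 fold changes, a score (the Wald statistic) and p-values with their adjusted values. Dividing each library's signal by its smallest step recovered whole reads (100% of values, tolerance 0.01 reads).

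Columns were matched to genotype only, since Y-linked reads and labelled sex disagree for the same numbers. Limma 3.58.1 (R 4.3.3) with an intensity trend was fitted two-sided to log2(value + 1) for the 14397 genes averaging 10 or more, with genotype and a term for Y-linked reads (sum above 100); a DESeq2 1.42.0 fit with that term gave the authors' log2 fold changes within 9.2e-09. Calls are at a Benjamini-Hochberg adjusted p under 0.05. Pairs of replicates were further apart than sampling noise (chi-square over degrees of freedom of 7.03 to 169 in 30 pairs). Alternatives were other pseudocounts and filters, TMM, quantile normalisation, edgeR 4.0.16, DESeq2, no Y-linked term, a replicate block, each library left out, control libraries 4 and 5 left out, and a length trend removed.

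Members and lists were chosen with earlier results of these data known. Named genes are the tektins, Foxj1, members with an unadjusted p under 0.05, the most abundant member per role and gene per other list, called genes of those lists, the neighbours of Tekt2 and Nsd1; the other members are given to account for all 39, and further genes of the other lists were chosen after their values were seen; a gene that the rule also named is not reported here. Exon lengths are from GENCODE M21 and start regions from RefSeq, both on GRCm38, used by gene name only. Lengths matched 29 of 29 tested members.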

Additional observations from a re-analysis of the deposited data

Results flagged for a closer look

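In 9 of 94 groups of 6 libraries examined, 1 library lay far from the other 5, where chance gives about 1 in 20. Among members, Dnaic2 reached 52.8 normalised reads in cKO library 3, Tekt3 reached 2.56 in cKO library 5 and Dnahc2 was down to 27.8 in cKO library 6. In control library 5, Dnahc9 reached 154 and Tekt4 reached 26.6, in one of the libraries with much mitochondrial ribosomal RNA. Among genes of the other lists, cKO library 4 stood apart for Dyx1c1 at 2149, Odf2 at 889.6 and Csf1r at 1416, and control library 4 for Aqp4 at 2678.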

How the results depend on the processing

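Tekt2 was called in every alternative in which it was tested, with log2 differences of 2.47 to 3.66 (adjusted p up to 0.00045) and of 3.15 to 3.49 when a library was left out (adjusted p up to 0.00011). Under a filter at a mean of 50 normalised reads Tekt2 was not tested, which left 1 member called, Efcab1, and 58 genes in all. Members called ranged from 1 to 3 when a library was left out, and genes called in all from 97 to 123; the median of members other than Tekt2 ranged from -0.02 to 0.08. Whole recovered reads gave 119 called genes in edgeR and 169 in DESeq2, with Tekt2 and Efcab1 the called members in both. Samples were not treated as pairs: the same-numbered correlations of 0.34, 0.50, 0.35, 0.09, 0.09 and 0.26 were all above 0 but not all above 0.1, and 7 of 12 samples correlated best with their own number; with the replicate block 118 genes and 2 members were called, and Nsd1 stayed uncalled (-0.36, adjusted p = 0.0926). Nsd1 ranged from -0.45 to -0.29 when a library was left out and was called only with the length trend removed (-0.47, adjusted p = 0.00769; the cause was not tested). Signs turned for genes near 0: with quantile normalisation Camk2a gave 0.13; without control libraries 4 and 5 Tekt4 gave 0.085 and Flt1 0.13; with the length trend removed Tekt4 gave 0.031, Rfx3 -0.029, Odf2 -0.022 and Eif2c3 -0.018. Leaving out a library gave ranges of -0.21 to 0.11 for Tekt4, -0.070 to 0.075 for Flt1, -0.013 to 0.11 for Rfx3, -0.030 to 0.18 for Eif2c3 and -0.0015 to 0.059 for Odf2. None of these genes was called. Several uncalled values moved by over 1.5 times without a library, and not all are listed. Among members, Dnahc5 ranged from 0.15 to 0.37, Dnaic1 from -0.30 to -0.13 and Ccdc39 from 0.070 to 0.19. Among other genes, Tm4sf1 ranged from -0.28 to -0.078, Aldoc from -0.29 to -0.12 and Camk2a from -0.22 to -0.11. Csf1r ranged from 0.033 to 0.13 and Adprhl2 from 0.052 to 0.14. At 18 reads in all control libraries, the size of the Tekt2 ratio is less certain than its call.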
